A study of Mus musculus with 12 samples.

Results

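The 8 genes described here encode phospholipases A1 and A2 of the mouse: Pla1a, Pla2g5, Pla2g2d, Pla2g12a, Pla2g4a, Pla2g6, Pla2g7 and Pla2g15. They were picked by gene symbol, 8 of the 47069 genes in the count matrix, around the pair Pla1a and Pla2g5, which had been chosen by their opposite differences between Jrt;Sost-ko mice and the Jrt;Sost-het group. The question was whether related enzymes differed in the same way. RNA was measured in flushed tibia shafts of male mice aged 8 weeks, with 4 mice in each of 3 groups. WT mice carried no altered allele (Col1a1+/+ and Sost+/+) and came from a parallel colony. By the study's methods, that colony and both Jrt groups were of mixed FVB and C57BL/6 background. Both Jrt groups carried Col1a1Jrt/+, a splice site variant of the gene for the main collagen chain of bone that gives a dominant severe form of osteogenesis imperfecta. Jrt;Sost-het mice had a single working Sost allele, according to the study's methods, and Jrt;Sost-ko mice had none (Sost-/-). Each mouse gave a single library, so p-values refer to the spread between mice.

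Phospholipases A1 and A2 cut a fatty acid from the outer or the middle position of a membrane phospholipid and leave a lysophospholipid. The freed fatty acid is often arachidonic acid, the substrate from which cyclooxygenases and lipoxygenases make prostaglandins and leukotrienes, and the lysophospholipid can act as a signal of its own. Secreted members work outside the cell or at its surface, the cytosolic member is drawn to membranes by calcium, and other members act on oxidised lipids, on platelet-activating factor (PAF) or in the lysosome. In bone, osteoblasts respond to load by releasing prostaglandins. Sost encodes sclerostin, an inhibitor of Wnt signalling made by osteocytes.

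Pla1a was lower and Pla2g5 higher in every Jrt;Sost-ko mouse than in every Jrt;Sost-het mouse, which is how this pair was chosen. None of the other 6 genes separated these groups, and none passed the test in any comparison. The remaining secreted enzymes, Pla2g2d and Pla2g12a, differed by 0.12 and -0.09 on the log2 scale, each with a 95% interval that included 0. Cytosolic Pla2g4a was 0.24 higher and Pla2g7, the plasma PAF acetylhydrolase, 0.19 lower than in Jrt;Sost-het mice, and both overlapped between the groups.

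The libraries held 24366061 to 44418863 counts. Levels are given as counts per 1000000 counts of the library (CPM), with library sizes scaled by the trimmed mean of M-values. Sost itself was at 26.8 to 70.4 CPM in Jrt;Sost-het mice, 28.5 to 72.3 CPM in WT mice and 0.326 to 1.28 CPM in Jrt;Sost-ko mice. Osteoblast and osteocyte marker genes were detected in every library, the osteoblast list at a summed 23130 to 70560 CPM. Most of that sum came from Col1a1 and Col1a2 in every library. Skeletal muscle markers varied from 38.7 to 33150 CPM over the 12 libraries. Epidermal markers summed to 161 CPM in WT mouse 3 and to 702 CPM in WT mouse 4, against 14.2 to 19.0 CPM in the other 10 libraries. A pool of cells was sequenced from each tibia, so that fewer cells of a type and less RNA per cell cannot be told apart. WT mice came from their own colony, and in either comparison with WT the colony cannot be told apart from the genotype, and these comparisons share the WT mice.

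None of the 8 genes lies on chromosome 11, which carries Sost. In GRCm38, Pla1a lies at chr16:38396117-38433145 on the minus strand, Pla2g4a at chr1:149829618-149961290 on the minus strand, Pla2g6 at chr15:79286228-79328390 on the minus strand and Pla2g7 at chr17:43568098-43612201 on the plus strand. Pla2g12a was found at chr3:129878606-129895825 and Pla2g15 at chr8:106150399-106164715, both on the plus strand. Pla2g5 (chr4:138799244-138863482, minus strand) and Pla2g2d (chr4:138775735-138782046, plus strand) are neighbours in a cluster of secreted phospholipase A2 genes. All 8 are annotated as protein coding.

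Because Pla2g5 and Pla2g2d share a cluster and differ in level, the 250 bases before their RefSeq starts are shown (GRCm38.p6, gene strand, 5′ to 3′). Capitals mark CTTTG or its reverse complement CAAAG, the core of the sites bound by the TCF/LEF factors of the Wnt pathway. The windows lie at chr4:138863470-138863719 for the upstream start of Pla2g5, at chr4:138819258-138819507 for a start inside the gene, and at chr4:138775485-138775734 for Pla2g2d.
Pla2g5, upstream start: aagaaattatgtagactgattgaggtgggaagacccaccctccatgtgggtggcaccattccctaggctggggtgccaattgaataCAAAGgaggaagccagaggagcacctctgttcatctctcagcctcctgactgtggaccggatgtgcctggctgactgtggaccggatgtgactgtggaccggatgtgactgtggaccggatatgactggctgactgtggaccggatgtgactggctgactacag
Pla2g5, inner start: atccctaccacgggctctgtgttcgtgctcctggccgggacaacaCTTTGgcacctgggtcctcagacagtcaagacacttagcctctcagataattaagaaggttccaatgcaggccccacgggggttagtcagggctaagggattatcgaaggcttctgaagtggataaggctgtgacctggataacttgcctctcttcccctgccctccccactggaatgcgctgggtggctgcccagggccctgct
Pla2g2d: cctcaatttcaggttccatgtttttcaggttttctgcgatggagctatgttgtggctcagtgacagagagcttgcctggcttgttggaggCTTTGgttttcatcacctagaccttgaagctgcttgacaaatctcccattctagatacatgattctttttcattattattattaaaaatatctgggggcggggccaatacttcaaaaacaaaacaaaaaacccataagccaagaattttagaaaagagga
Each window held the motif 1 time, on either strand, and 48.6% of the 32851 promoter windows of the same length hold it, so that it does not set these genes apart. The upstream window of Pla2g5 contains a short tandem repeat. Its run of 12 bases tgactgtggacc occurs 5 times without overlap, and 90 of the 32851 windows (0.274%) hold any run of 12 bases as often. Neither sequence feature was tested against expression. RefSeq promoter entries matched 7 of the 8 genes, and Pla1a was the gene without an entry.

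The levels of the 8 genes can be set beside each other only per length of exon. On the scale of CPM per kilobase, averaged over the 12 mice, Pla2g7 was highest at 17.8 ± 2.10 (SD, n = 12), followed by Pla2g15, the lysosomal enzyme, at 13.9 ± 1.13. Pla2g7 exceeded Pla2g15 in 12 of 12 mice, and Pla2g15 exceeded the next gene in all of them too. Pla2g12a stood at 7.36 ± 0.93, Pla2g5 at 5.99 ± 2.01, Pla2g4a at 5.30 ± 0.59 and Pla1a at 4.49 ± 2.13 CPM per kilobase. Of these 4, genes next to each other in the order did not differ beyond their spread. The order of Pla2g12a over Pla2g5 held in 9 of 12 mice, of Pla2g5 over Pla2g4a in 8 and of Pla2g4a over Pla1a in 8. Genes further apart in the order were not compared mouse by mouse. Pla2g6, the calcium-independent enzyme, followed at 2.01 ± 0.18, below Pla1a in 11 of 12 mice, and Pla2g2d at 0.718 ± 0.28 CPM per kilobase, again lower in 12 of 12 mice. The order is therefore firm at both ends and not in the middle, where Pla1a and Pla2g5 lie.

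**Figure D1:**
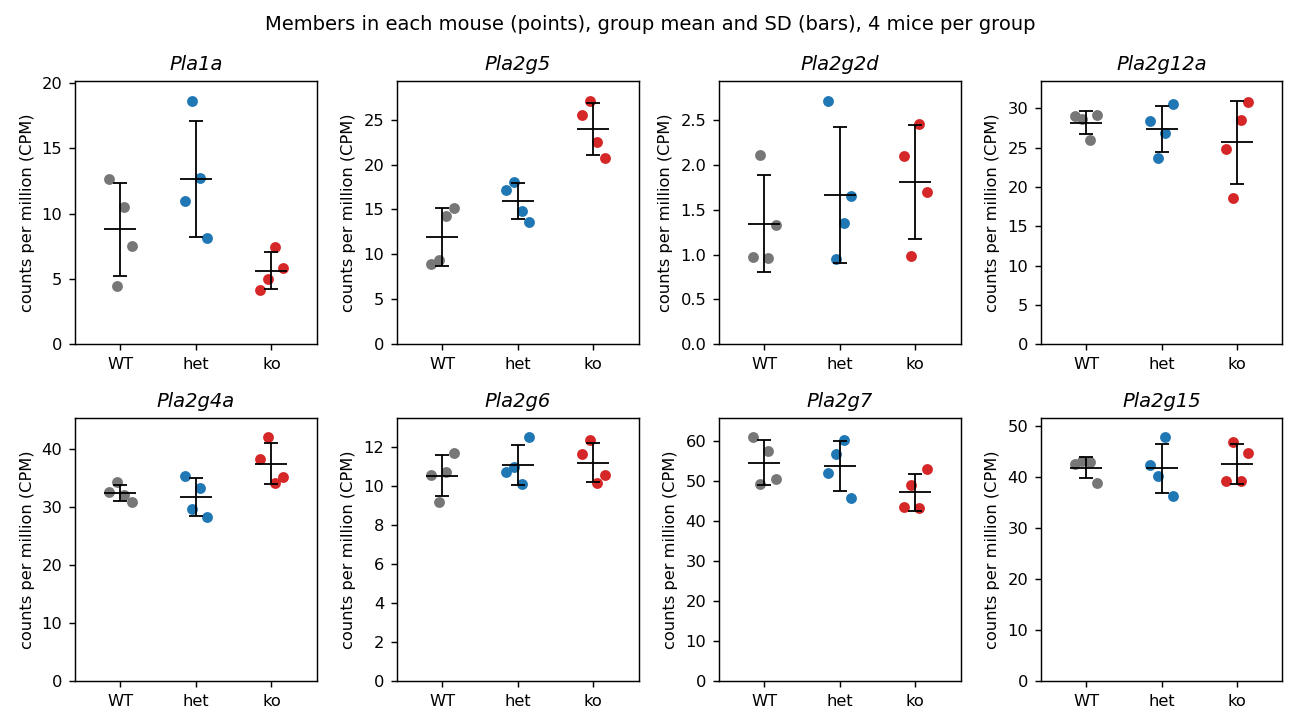
CPM of each of the 8 genes (vertical axes, starting at 0) in WT, Jrt;Sost-het (het) and Jrt;Sost-ko (ko) mice. Points are the 4 mice of a group and black bars the mean ± SD; only Pla1a and Pla2g5 separate ko from het mice, with the highest ko value of Pla1a at 7.46 CPM under the lowest het value of 8.15 CPM.

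Pla1a encodes a secreted phospholipase A1 that acts on phosphatidylserine and leaves lysophosphatidylserine. Its level was 10.96, 18.7, 12.7 and 8.15 CPM in Jrt;Sost-het mice 1 to 4 and 4.18, 5.00, 7.46 and 5.87 CPM in the 4 Jrt;Sost-ko mice. WT mice held 12.6, 4.48, 10.5 and 7.56 CPM, which covers most of the Jrt;Sost-ko range and the lower part of the Jrt;Sost-het range. The Jrt groups thus separate from each other, while WT overlaps with each. Means were 12.6 ± 4.45 CPM in Jrt;Sost-het, 5.63 ± 1.40 in Jrt;Sost-ko and 8.80 ± 3.55 in WT mice (SD, n = 4 each). The fitted log2 difference of Jrt;Sost-ko against Jrt;Sost-het was -1.16 (SE 0.264; 95% interval -1.76 to -0.56), a 0.447-fold level. It is given with no p because Pla1a was chosen on this contrast. Against WT the log2 difference was -0.64 (SE 0.315) in Jrt;Sost-ko mice and 0.53 (SE 0.34) in the Jrt;Sost-het group, so that WT lay between the Jrt groups. Pla1a varied widely among mice of the same genotype, with a coefficient of variation of 40.4% in WT and 35.2% in Jrt;Sost-het mice.

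Pla2g5 encodes a secreted, calcium-dependent phospholipase A2 that acts on membranes rich in phosphatidylcholine. In Jrt;Sost-het mice 1 to 4 it was at 17.2, 18.1, 14.9 and 13.7 CPM, and in Jrt;Sost-ko mice at 25.5, 27.1, 22.5 and 20.7 CPM. WT mice held 8.96, 9.40, 14.3 and 15.2 CPM, all below every Jrt;Sost-ko mouse, and 2 of them within the range of the Jrt;Sost-het mice. WT averaged 11.95 ± 3.23 CPM, Jrt;Sost-het mice 15.95 ± 2.04 and Jrt;Sost-ko mice 23.96 ± 2.91 (SD, n = 4 each). As a log2 difference, Jrt;Sost-ko against Jrt;Sost-het was 0.59 (SE 0.118; 95% interval 0.32 to 0.86), a 1.503-fold level, and Jrt;Sost-ko against WT was 1.01 (SE 0.197). Between Jrt;Sost-het and WT it was 0.42 (SE 0.199). WT mice 3 and 4, the libraries with epidermal transcripts, held the higher WT levels, and without them the log2 difference from WT was 0.81 for Jrt;Sost-het and 1.39 for the Jrt;Sost-ko group. With all WT mice Jrt;Sost-het thus differed less from WT than from Jrt;Sost-ko, and without these libraries more. WT mice 3 and 4 also held the higher osteoblast marker sums of the WT group, 38990 and 58710 CPM against 30350 and 23130 CPM. Leaving them out therefore removes more than epidermal transcripts.

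Pla2g2d, which encodes a secreted phospholipase A2 found mainly in dendritic cells and macrophages of lymphoid tissue, was the lowest of the 8 genes. Jrt;Sost-het mice held 2.72, 0.949, 1.36 and 1.66 CPM, Jrt;Sost-ko mice 2.11, 0.982, 2.46 and 1.70 CPM, and WT mice 0.973, 2.12, 0.967 and 1.33 CPM. These values rest on 28 to 92 counts a library, and each group covers most of the range of the others. The log2 difference of Jrt;Sost-ko against Jrt;Sost-het was 0.12 (SE 0.373; 95% interval -0.73 to 0.96; edgeR adjusted p = 0.964), an interval wide enough to hold the difference seen for Pla2g5. Between mice of a group its coefficient of variation was 45.4% for Jrt;Sost-het, 35.1% for Jrt;Sost-ko and 40.2% for WT.

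Pla2g12a encodes a secreted phospholipase A2 of an unusual structure with a broad tissue range. It was at 28.4, 23.7, 26.9 and 30.6 CPM in Jrt;Sost-het, 24.9, 18.6, 28.5 and 30.8 CPM in Jrt;Sost-ko and 29.0, 28.6, 26.0 and 29.1 CPM in WT mice. Its highest and its lowest value both belong to Jrt;Sost-ko mice. The log2 difference of Jrt;Sost-ko against Jrt;Sost-het was -0.09 (SE 0.152; 95% interval -0.44 to 0.25; edgeR adjusted p = 0.934), and the interval stays short of the 0.59 seen for Pla2g5.

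Pla2g4a encodes the cytosolic phospholipase A2 that prefers phospholipids with arachidonic acid. Jrt;Sost-het mice held 35.4, 29.7, 33.4 and 28.3 CPM and WT mice 32.6, 34.3, 32.0 and 30.9 CPM. In Jrt;Sost-ko mice it was at 38.4, 42.0, 34.2 and 35.2 CPM, with 2 of the 4 above all other mice. The log2 difference was 0.24 (SE 0.0935; 95% interval 0.03 to 0.45) against Jrt;Sost-het and 0.21 (SE 0.0792) against WT. Before adjustment edgeR gave p = 0.0292 and p = 0.0254, and after adjustment over all genes 0.901 and 1.0; the exact permutation test, two-sided, gave p = 0.0857 and p = 0.0571. Neither comparison passed the threshold. With 4 mice against 4 the smallest p the exact test can reach is 0.0286, from 70 arrangements.

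Pla2g6 encodes the calcium-independent phospholipase A2 that takes part in membrane remodelling. It had 10.7, 10.98, 10.1 and 12.5 CPM in Jrt;Sost-het mice, 11.6, 12.4, 10.2 and 10.6 CPM in Jrt;Sost-ko mice and 10.5, 9.16, 10.7 and 11.7 CPM in WT mice. This was among the steadiest of the 8 genes, and the groups overlapped throughout. Jrt;Sost-ko differed from Jrt;Sost-het by 0.01 on the log2 scale (SE 0.107; 95% interval -0.23 to 0.26; edgeR adjusted p = 0.984).

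Pla2g7 encodes the plasma form of PAF acetylhydrolase, secreted by macrophages, which inactivates PAF and cleaves oxidised phospholipids. Jrt;Sost-het mice held 52.0, 56.7, 60.3 and 45.8 CPM, Jrt;Sost-ko mice 43.5, 49.1, 43.2 and 52.9 CPM, and WT mice 61.0, 49.2, 57.5 and 50.5 CPM. Among Jrt;Sost-ko mice 2 of the 4 lay below all other mice, while the highest lay within both other groups. The log2 difference was -0.19 (SE 0.0965; 95% interval -0.41 to 0.03) against Jrt;Sost-het and -0.20 (SE 0.092) against WT, with an edgeR adjusted p of 0.901 and 1.0. The exact permutation test gave p = 0.143 and p = 0.114. An antisense gene, 1700071M16Rik, overlaps exons of Pla2g7 and had 0 to 13 counts per library against 1107 to 2556 for Pla2g7; whether counting used the strand is not given in the sources used here.

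Pla2g15 encodes a lysosomal phospholipase A2 that also transfers acyl groups to ceramide. Levels were 42.3, 40.1, 47.7 and 36.3 CPM in Jrt;Sost-het, 39.1, 46.8, 39.2 and 44.7 CPM in Jrt;Sost-ko and 42.5, 43.1, 42.8 and 38.7 CPM in WT mice. The log2 difference of Jrt;Sost-ko against Jrt;Sost-het was 0.03 (SE 0.0943; 95% interval -0.18 to 0.24; edgeR adjusted p = 0.965). Together with Pla2g6 it was the gene nearest to 0 in this comparison, and the groups overlapped throughout.

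**Figure D2:**
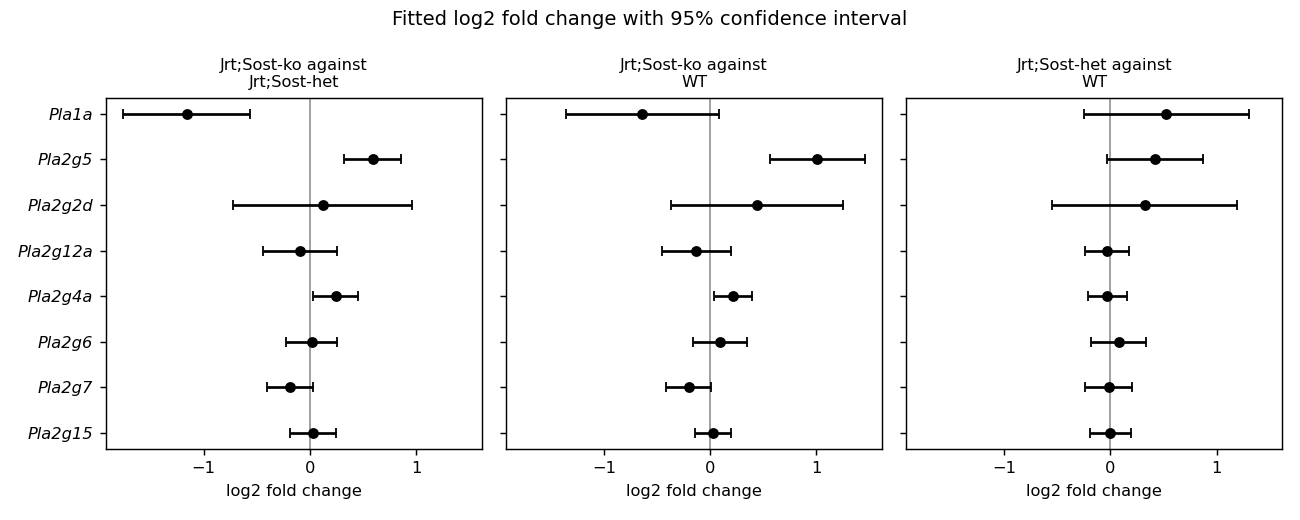
Log2 fold change (horizontal axes) of the 8 genes in each comparison, with points for the fitted value and bars for its 95% confidence interval. For Jrt;Sost-ko with Jrt;Sost-het as the reference, Pla1a at -1.16 and Pla2g5 at 0.59 lie to either side of the other 6 genes, which run from -0.19 to 0.24.

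In the comparison on the Jrt background, that is of Jrt;Sost-ko with Jrt;Sost-het mice, edgeR called 0 of the 8 genes at an adjusted p under 0.05, against a background of 0.00597% of 16739 genes tested, a single gene, Sost. At an unadjusted p under 0.05 there were 3 of 8 (Pla1a, Pla2g5 and Pla2g4a) beside 5.02% of all genes, and DESeq2 called 2, the pair chosen on this contrast, beside 0.105% of the 17108 genes it adjusted. Since the contrast chose that pair, nothing is read from these counts. Groups without overlap were found for 2 of 8 genes, again that pair, where 3.2% of all genes had none, and nothing is read from that count either. Among the other 6 genes the count was 0, and their median log2 difference was 0.02 beside 0.00 for all genes tested. For Jrt;Sost-ko against WT, edgeR called 0 of 8 (background 0.00583% of 17155 genes), with 2 of 8 at an unadjusted p under 0.05 (Pla2g5 and Pla2g4a) beside 3.89% of all genes, and 1 called by DESeq2 (Pla2g5) beside 0.0867% of 20756. Only Pla2g5 had groups without overlap there, where 2.4% of all genes did. Because Pla2g5 was chosen on values of these same Jrt;Sost-ko mice, nothing is read from its part in these counts either. For Jrt;Sost-het against WT, edgeR called 0 of 8 (background 0.0% of 16775 genes), 0 were at an unadjusted p under 0.05 beside 2.14% of all genes, and DESeq2 called 0 beside 0.0132% of 30263. None of the 8 had groups without overlap in that comparison, where 1.54% of all genes did. The 6 genes other than Pla1a and Pla2g5 lay between -0.03 and 0.32 on the log2 scale in Jrt;Sost-het against WT and between -0.20 and 0.44 in Jrt;Sost-ko against WT, with Pla2g2d, the gene with fewest counts, at the upper end of both.

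Levels of the neighbours of Pla2g5 were then compared along chromosome 4. Of the 6 secreted phospholipase A2 genes of the cluster, Pla2g5 had by far the most counts, 275 to 912 a library. Pla2g2a, annotated as a polymorphic pseudogene, lies inside the span of Pla2g5 on the other strand and had 0 to 1 counts, as had Pla2g2c. A count of 0 allows up to 0.0675 to 0.123 CPM, depending on the library, and covers counting error only. Pla2g2e, which begins 14.5 kb from the upstream start of Pla2g5, had 0 to 71 counts. Pla2g2f had 0 to 3 counts in 10 libraries but 94 and 310 in WT mice 3 and 4, the libraries with epidermal transcripts. Among the other secreted phospholipase A2 genes of the cluster only Pla2g2d, with 28 to 92 counts, was present in every library.

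**Figure D3:**
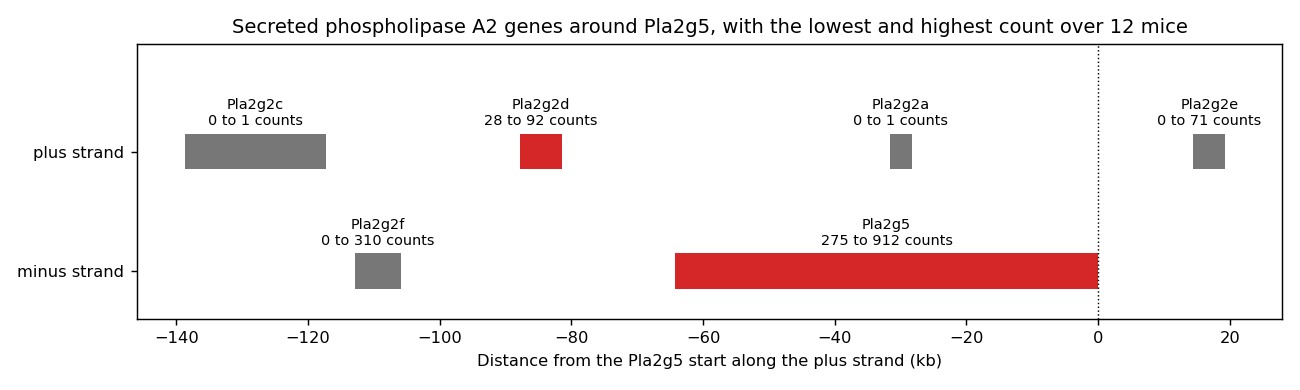
Secreted phospholipase A2 genes of the cluster on chromosome 4 by strand (rows) and by distance in kb from the upstream start of Pla2g5 (horizontal axis, dotted line at the start). Bars are gene spans, red for Pla2g5 and Pla2g2d, with the lowest and highest count over 12 mice; Pla2g5 reaches 912 counts and Pla2g2a, inside its span, 1.

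Around these 8 genes stand their relatives, the enzymes that use their products, and the receptors of these, in 11 lists that hold 103 genes, the 8 included. Of these, 88 had enough counts to be tested. In each of the 3 comparisons edgeR called 0 of the 88 (the backgrounds are those given above); at an unadjusted p under 0.05 there were 11 on the Jrt background beside 5.02% of all genes, 2 in Jrt;Sost-het against WT beside 2.14%, and 7 in Jrt;Sost-ko against WT beside 3.89%. DESeq2 called 2, 0 and 2, beside 0.105%, 0.0132% and 0.0867% of all genes. These counts include Pla1a and Pla2g5. Over the 88 genes, 33 lay above 0 and 55 below 0 on the Jrt background, with a median log2 difference of -0.04.

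Among relatives of Pla1a, Lpl, the lipoprotein lipase, had the highest level at 34.6 CPM per kilobase, and Lipc, the hepatic lipase gene, stood at 11.5. Lipc was at 21.8 to 30.8 CPM in Jrt;Sost-het, 24.6 to 30.4 in Jrt;Sost-ko and 14.8 to 26.4 in WT mice. Of the 7 tested genes of this list, Pla1a was the only gene whose Jrt groups did not overlap, and 4 of 7 lay above 0. Liph, whose product makes lysophosphatidic acid in the skin, was low at 0.296 CPM per kilobase, and the pancreatic genes Pnlip and Pnliprp2 had 0 counts in every library. In the secreted list 5 of 11 genes could be tested, and Pla2g12a and Pla2g5 had the highest levels. The cytosolic list had Pla2g4a at 5.30 and Pla2g4c at 2.05 CPM per kilobase on top, and 1 of its 4 tested genes, Pla2g4a, lay above 0 on the Jrt background.

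**Figure D4:**
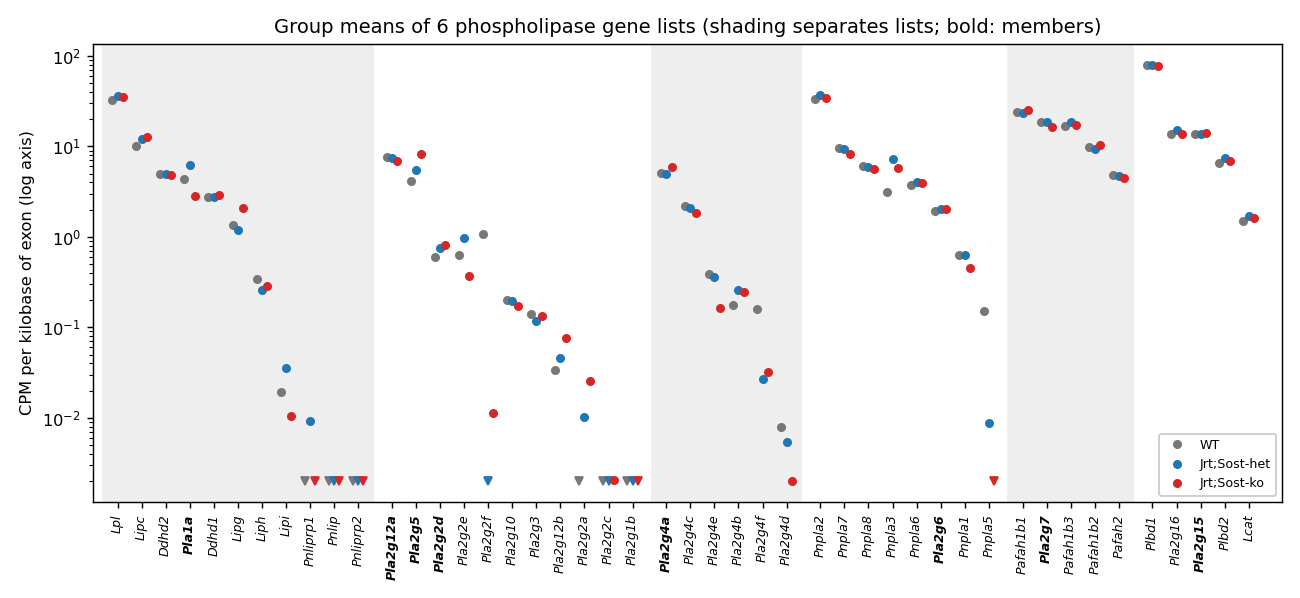
Mean CPM per kilobase of exon (log axis) of the genes of 6 phospholipase lists in the WT, Jrt;Sost-het and Jrt;Sost-ko groups, each point a group mean of 4 mice; triangles at the foot are means below the axis. Bold names are the 8 genes, which run from Pla2g7 at 17.8 to Pla2g2d at 0.718 CPM per kilobase, while the pancreatic genes lie at the foot.

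Patatin-like phospholipases, the relatives of Pla2g6, were led by Pnpla2, the adipose triglyceride lipase gene, at 34.6 CPM per kilobase, and Pnpla7, a lysophospholipase gene, at 9.10. On the Jrt background 6 of the 7 tested members lay below 0, with a median of -0.12. Pnpla8, the mitochondrial calcium-independent phospholipase, was at 82.3, 84.6, 84.9 and 86.6 CPM in Jrt;Sost-het and 82.1, 81.1, 81.0 and 74.7 CPM in Jrt;Sost-ko mice. The groups did not overlap but nearly met, at 82.3 and 82.1 CPM, and the log2 difference was -0.09 (SE 0.0507; edgeR adjusted p = 0.901). Pnpla3, a lipase of fat droplets, had 4.17, 3.59, 5.98 and 5.46 CPM in WT mice and 10.6, 9.46, 6.61 and 9.43 CPM in Jrt;Sost-ko mice, without overlap. In Jrt;Sost-het mice it ranged from 5.22 to 17.8 CPM. Its log2 difference from WT was 0.91 (SE 0.209; edgeR adjusted p = 1.0) in Jrt;Sost-ko mice and 1.22 (SE 0.407; edgeR adjusted p = 1.0) in the Jrt;Sost-het group; DESeq2 called the former. The 8 adipocyte marker genes lay above 0 in both comparisons too, with median log2 differences of 0.40 and 0.47 and summed levels of 569 to 801 CPM in Jrt;Sost-ko, 510 to 1005 CPM in Jrt;Sost-het and 377 to 643 CPM in WT mice, and edgeR called 0 of them. None of these markers was at 0 in any mouse, and their part in the level of Pnpla3 was not tested.

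Intracellular PAF acetylhydrolase is built from the products of Pafah1b1, a regulatory subunit, and of Pafah1b2 and Pafah1b3, its catalytic subunits. Pafah1b1 had the highest level of this list at 24.2 CPM per kilobase. Pafah1b2 was at 84.3, 85.3, 85.0 and 84.8 CPM in Jrt;Sost-ko, 79.0, 80.5, 79.5 and 72.0 CPM in Jrt;Sost-het and 80.6, 81.8, 83.9 and 79.9 CPM in WT mice. Jrt;Sost-ko mice were thus above every other mouse, by a log2 difference of 0.13 (SE 0.0479) from Jrt;Sost-het and 0.06 (SE 0.0426) from WT (edgeR adjusted p = 0.901 and 1.0). Nor did Pafah1b1 overlap between the Jrt groups, at 0.09 (SE 0.0493). Pla2g7, the secreted enzyme with the same substrate, lay on the other side of 0 at -0.19.

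Lysosomal and adipose relatives of Pla2g15 were led by Plbd1, a phospholipase B-like gene, at 78.7 CPM per kilobase and Pla2g16, the adipose phospholipase, at 14.1; none of the 5 tested was without overlap in any comparison. Anxa1 and Anxa2, annexins known as inhibitors of phospholipase A2, had the highest levels of the regulators at 266.5 and 87.5 CPM per kilobase. Pla2r1, the receptor that binds secreted phospholipases A2, was at 5.599 CPM in Jrt;Sost-ko and 7.02 CPM in Jrt;Sost-het mice on average, a log2 difference of -0.33 (SE 0.138; edgeR adjusted p = 0.901), and these groups overlapped.

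Lysophospholipid genes were led by Lypla2, a lysophospholipase, at 32.6 and Gde1, a glycerophosphodiesterase, at 27.5 CPM per kilobase. Enpp2, which encodes autotaxin and makes lysophosphatidic acid, averaged 26.4 CPM in Jrt;Sost-ko and 43.5 CPM in Jrt;Sost-het mice, but Jrt;Sost-ko mouse 3 with 41.6 CPM lay among the latter. Its log2 difference was -0.72 (SE 0.291; edgeR adjusted p = 0.901). Gpr34, a receptor for lysophosphatidylserine, differed by -0.49 (SE 0.210; edgeR adjusted p = 0.901) with overlap. Of the genes that put fatty acids back on lysophospholipids, Lpcat1 at 31.8 and Lpcat3 at 24.5 CPM per kilobase were highest, and Acsl4, which activates arachidonic acid, differed by 0.17 (SE 0.0651; edgeR adjusted p = 0.901).

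In the eicosanoid lists, Alox5ap, which presents arachidonic acid to lipoxygenase, and Lta4h, a leukotriene hydrolase, were highest at 124.7 and 42.7 CPM per kilobase, and the leukotriene receptor Ltb4r1 and the prostacyclin receptor Ptgir led the receptors at 49.4 and 7.91. Ptges3, a prostaglandin synthase and chaperone partner, was at 96.9, 104, 88.8 and 97.8 CPM in Jrt;Sost-ko and 79.3, 83.8, 88.1 and 82.8 CPM in Jrt;Sost-het mice, without overlap. Its log2 difference was 0.21 (SE 0.0609; edgeR adjusted p = 0.901). Ptgs2, the inducible cyclooxygenase gene, was low, at 3.39, 6.31, 3.24 and 1.40 CPM in Jrt;Sost-ko and 0.773, 0.718, 0.855 and 2.44 CPM in WT mice, which overlap. The log2 difference between these was 1.59 (SE 0.549, edgeR adjusted p = 1.0). Jrt;Sost-het mice held 4.31, 1.66, 0.828 and 2.40 CPM of Ptgs2. From these Jrt;Sost-ko mice differed by 0.64 (SE 0.541, edgeR adjusted p = 0.903). Ptgfr, a prostaglandin receptor gene, was lower in every Jrt;Sost-ko mouse than in every WT mouse, by -0.22 (SE 0.0924; edgeR adjusted p = 1.0). Jrt groups without overlap thus came to 6 of the 88 genes, the pair chosen on it included, beside the 3.2% of all genes given above.

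Genes whose pattern over the 12 mice was most like that of Pla1a and of Pla2g5 were ranked by Pearson's r of log2 CPM over 16535 genes, as a description with no p. For Pla1a these were Gpr34 (r = 0.908), Prg4, which encodes lubricin (r = 0.899), and Htra4, a serine protease gene (r = 0.882). Prg4 ran from 124 to 1526 CPM and Htra4 from 4.70 to 75.0 CPM, and both fell into separate clusters of mice, with Jrt;Sost-ko mice 1, 2 and 4 and WT mouse 2 low. Within the 8 mice of the higher cluster r was 0.644 for Prg4 and 0.535 for Htra4, and the lower cluster of 4 is too small for a value. Gpr34 held no such gap, and after subtraction of the group means its r with Pla1a was 0.927. For Pla2g5 the most alike were Gnai1, a G protein subunit gene (r = 0.927), Plod2, a collagen lysyl hydroxylase gene (r = 0.921), and Purg, a gene for a nucleic acid binding protein (r = 0.917). After subtraction of the group means these were 0.91, 0.901 and 0.76, and without the 2 mice farthest from the median 0.812, 0.823 and 0.843. In Gnai1 and Plod2, WT mice 1 and 2 lay below the largest gap, which took 0.28 and 0.285 of the range, beside 0.335 for Prg4. Pla1a and Pla2g5 had r = -0.308 with each other, far from a mirror image, and the highest r of Pla1a with another of the 8 genes was 0.705, with Pla2g7. Libraries, depth and tissue makeup are shared by all these points.

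**Figure D5:**
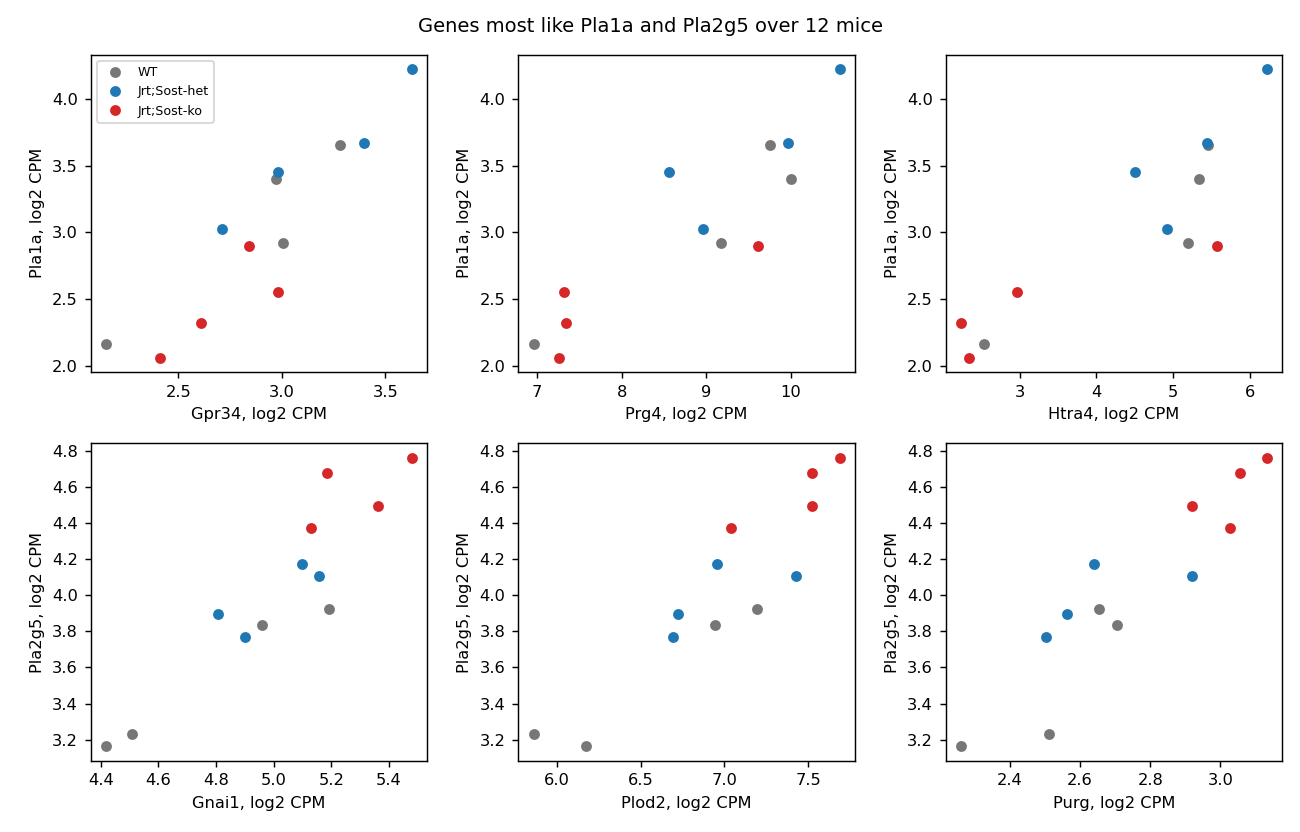
Log2 CPM of Pla1a (upper row) and Pla2g5 (lower row) against the 3 genes most like each, with a point for each of the 12 mice coloured by group. Prg4 and Htra4 place Jrt;Sost-ko mice 1, 2 and 4 and WT mouse 2 in a low cluster. Points for Pla2g5 follow Gnai1 at r = 0.927, with WT mice 1 and 2 apart at the low end.

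Cell type markers moved with some of these levels. The osteoblast list of 10 genes summed to 56940, 46790, 35450 and 38200 CPM in Jrt;Sost-het, 53820, 65120, 70560 and 42780 CPM in Jrt;Sost-ko and 30350, 23130, 38990 and 58710 CPM in WT mice, with overlap between all groups. These sums were mostly Col1a1, the gene altered in both Jrt groups, and Col1a2, at 24820 and 28360 CPM in Jrt;Sost-het mouse 1. On the Jrt background 9 of its 10 genes lay above 0, with a median log2 difference of 0.29, beside 0.59 for Pla2g5, and edgeR called 0 of them. Over the 12 mice, log2 CPM of Pla2g5 followed the mean of this list with Pearson's r = 0.846 and Spearman's rho = 0.853. Leaving out 2 mice, those with list levels farthest from the median, gave an r of 0.629, and subtraction of the group means an r of 0.853. These are given with no p since Pla2g5 was chosen from the same values, and the part of osteoblast content in the difference of Pla2g5 was not tested. No osteoblast marker was at 0 in any mouse.

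Pla1a did not follow the osteoblast list (r = -0.0894), and its r with the macrophage list was 0.565, with rho = 0.587. Without the 2 farthest mice the latter r was 0.472, and after subtraction of the group means 0.718. As for Pla2g5, these are given with no p. Markers of muscle and cartilage went the way of Pla1a on the Jrt background. All 16 muscle genes lay below 0, with a median log2 difference of -0.98 and summed levels of 38.7 to 13760 CPM in Jrt;Sost-ko against 2574 to 31150 in Jrt;Sost-het mice. All 7 cartilage genes lay below 0 as well, with a median of -1.90 and sums of 173 to 849 against 284 to 3520 CPM. The 3520 CPM came from Jrt;Sost-het mouse 1, and the rest of that group held 284 to 780 CPM. No gene of either list passed the test. Of other lists, 0 of 8 osteoclast, 0 of 6 endothelial, 1 of 8 adipocyte and 2 of 9 neutrophil genes lay above 0. Their median log2 differences ran from -0.13 to -0.08. Further lists went the other way: 8 of 8 erythroid, 7 of 10 macrophage, 6 of 7 osteocyte, 6 of 7 T cell and 6 of 8 B cell genes lay above 0. The medians of these ran from 0.02 for macrophage to 0.34 for osteocyte genes. Of dendritic cell genes 3 of 7 lay above 0 (median -0.13), and of tested epidermal genes 3 of 6 (median -0.02). The r of Pla1a with the muscle list was 0.344. Without the 2 farthest mice it was -0.0883, and after subtraction of the group means 0.153. The part of these tissues in the difference of Pla1a was not tested.

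For the other 6 genes, 18 relations with the muscle, osteoblast and macrophage lists were computed within a family of 24, and none passed after adjustment. Pla2g7 had r = 0.694 with the macrophage list (permutation p = 0.0147, adjusted p = 0.174; rho = 0.65, p = 0.0258, adjusted p = 0.166). Its r was 0.801 without the 2 mice farthest from the median and 0.857 after subtraction of the group means. Pla2g2d ran the other way, with r = -0.666 (permutation p = 0.0217, adjusted p = 0.174; rho = -0.601, p = 0.0425, adjusted p = 0.166) and -0.763 without the 2 farthest mice. Pla2g4a had rho = -0.657 with the muscle list (permutation p = 0.0237, adjusted p = 0.166), with r = -0.406 (permutation p = 0.19, adjusted p = 0.417) and -0.623 without the 2 farthest mice. After subtraction of the group means the r of Pla2g4a was -0.264. Pla2g15 had rho = -0.622 with the muscle list (permutation p = 0.0341, adjusted p = 0.166) and r = -0.522. With the osteoblast list, Pla2g6 had r = 0.591 (permutation p = 0.0432, adjusted p = 0.259) and rho = 0.559. Pla2g7 had rho = -0.601 there (permutation p = 0.0427, adjusted p = 0.166) and r = -0.448. Within a group there are only 4 mice, too few for a value of their own.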

How the data were processed

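Tibia shafts of 12 mice were flushed of marrow and sequenced by the authors as paired reads after poly(A) selection, and aligned to GRCm38 with STAR. The authors deposited a matrix of raw whole-number counts for 47069 genes, with 24366061 to 44418863 counts a mouse. The counting tool, its use of strand and the annotation release are not given in the sources used here, and gene positions and exon lengths come from GENCODE M21. The authors' own comparison tables hold log2 fold changes and p-values and were not used.

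Counts were filtered with filterByExpr and scaled by the trimmed mean of M-values, and each comparison was fitted on its own 8 mice with the quasi-likelihood test of edgeR 4.0.16 (R 4.3.3, limma 3.58.1), with Benjamini-Hochberg adjustment over all genes tested and a threshold of 0.05. DESeq2 1.42.0 was an alternative, and log2 CPM used a prior count of 2. The scripts were tested on simulated data. Exact permutation tests were two-sided; correlations used 100000 permutations, and the p-values of 24 relations were adjusted together. The mean log2 CPM of a marker list was the measure set against each gene.

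Named were all 8 genes in every mouse, genes of the 11 lists that passed the test, had Jrt groups without overlap or were among the 2 highest in CPM per kilobase of their list, the secreted cluster around Pla2g5, and the 3 genes most like Pla1a and Pla2g5. Liph, Enpp2, Pla2r1, Gpr34, Acsl4, Ptgs2, Pnpla3 and Ptgfr, and the pancreatic genes, were named after their values were seen. The members and lists were chosen with earlier results of these data known. Mouse numbers only name the mice. Promoter sequences come from RefSeq (GRCm38.p6).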

Additional observations from a re-analysis of the deposited data

Results flagged for a closer look

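In Pla2g15 a WT mouse stood apart from the others of its group: WT mouse 4, at 38.7 CPM, lay below the other 3 WT mice at 42.5 to 43.1 CPM, a gap of 0.852 of the range of the group, past the critical value of Dixon's test for 4 mice. The 8 genes in 3 groups made 24 such checks, of which chance gives about 1.2. Pla2g12a in WT mice did not pass but equalled the critical value at 3 decimals, with WT mouse 3 at 26.0 CPM below the others at 28.6 to 29.1 CPM. The library of WT mouse 4 held the highest epidermal marker sum, 702 CPM, and that of WT mouse 3 the next highest, 161 CPM. WT mouse 4 also had the highest muscle marker sum of all libraries, 33150 CPM. The lowest Pla2g15 level of all 12 mice was 36.3 CPM, in Jrt;Sost-het mouse 4. That library held 31150 CPM of muscle markers and 16.7 CPM of epidermal markers. The part of either tissue in these levels was not tested.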

How the results depend on the processing

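Each comparison was refitted under 6 other settings of scaling, filter, test or samples and with each of 8 mice left out in turn, and those with WT also without WT mice 3 and 4, an alternative added after the data were seen. Of 352 refitted log2 differences of the 8 genes, 321 kept their direction and their side of the threshold, 28 changed sign and 3 passed the threshold. DESeq2 called 2 of the 8 genes for Jrt;Sost-ko versus Jrt;Sost-het (Pla1a and Pla2g5, the pair chosen on this contrast), where edgeR called 0. For Jrt;Sost-ko versus WT it called 1 (Pla2g5, chosen on the same Jrt;Sost-ko mice), where edgeR also called 0. Over the 11 lists DESeq2 called 2 and 2. The other alternatives called 0 of the 8. Pla1a stayed between -1.33 and -0.91 and Pla2g5 between 0.52 and 0.65 on the Jrt background. The changes of sign were in genes that edgeR had not called, among them Pla2g2d, at 0.32 in Jrt;Sost-het against WT with all mice and -0.017 without Jrt;Sost-het mouse 1. With a mouse left out, the Jrt comparison ranged from -0.080 to 0.455 for Pla2g2d, -0.039 to 0.083 for Pla2g6, -0.199 to 0.032 for Pla2g12a and -0.025 to 0.095 for Pla2g15. Jrt;Sost-het against WT ranged from -0.017 to 0.623 for Pla2g2d, -0.085 to 0.018 for Pla2g4a, -0.074 to 0.047 for Pla2g7, -0.098 to 0.033 for Pla2g12a and -0.069 to 0.056 for Pla2g15, and Jrt;Sost-ko against WT from -0.023 to 0.065 for Pla2g15. Pla2g15 in Jrt;Sost-het against WT was also -0.0022 with the size factors of DESeq2, -0.0023 with DESeq2, -0.0012 with no filter and -0.024 without WT mice 3 and 4, the last giving -0.0060 in Jrt;Sost-ko against WT. The cause was not tested. No paired analysis was possible because the labels give the mice no shared numbers. Pla2g2d had the fewest counts of the 8 genes, 28 to 92 a library.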

Other observations

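Among phospholipase A2 genes not described above, Pla2g4e had 1 to 279 counts. It was highest in WT mouse 4 with 279 counts and in Jrt;Sost-het mouse 4 with 163, the libraries with the highest summed muscle markers (33150 and 31150 CPM), and lowest in Jrt;Sost-ko mouse 4 with 1 count, where the muscle sum was lowest (38.7 CPM). The part of muscle in its level was not tested. Pla2g4f had 1 to 61 counts and Pnpla5 0 to 34 counts, both highest in WT mouse 4, whose library held most epidermal transcripts, and neither had enough counts to be tested between groups.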
